A study of Mus musculus with 32 samples.

Results

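The tRNA-Trp genes were studied as the 8 loci whose names begin with tRNA-Trp in the deposited tRNA tables, out of 401 tRNA loci in all. All 8 carried the anticodon CCA, and the first number of each name gave 6 isodecoders: tRNA-Trp-CCA-1-1, 2-1, 3-1, 3-2, 4-1, 4-2, 5-1 and 6-1. Chromatin accessibility was measured by ATAC-seq, in which an enzyme (Tn5 transposase) inserts sequencing adapters where DNA is open, on nuclei of brain and liver from C57BL/6N mice in 32 libraries. The mice were wild type (WT) or homozygous for the deletion of 1 tRNA-Phe gene, named here Phe11 (tRNA-Phe-GAA-1-1), Phe21 (tRNA-Phe-GAA-2-1) and Phe31 (tRNA-Phe-GAA-3-1). The study describes male WT and mutant mice matched for age and litter. It also states that mice came from different litters and that its results cover both sexes, and gives no sex for the ATAC-seq libraries. Brain gave 5 WT, 4 Phe11, 3 Phe21 and 3 Phe31 libraries, and liver gave 7, 4, 3 and 3. The labels name no other allele and no treatment, but the liver libraries labelled Phe31 had lost the signal of tRNA-Phe-GAA-1-1 rather than that of tRNA-Phe-GAA-3-1 and go against their label. Bulk tissue was used, so a change in the mix of cells and a change within cells cannot be told apart.

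tRNA-Trp reads the single tryptophan codon UGG through its anticodon CCA and carries tryptophan, one of the least used amino acids, to the ribosome. Like other tRNA genes, these loci are transcribed by RNA polymerase III from promoter elements inside the gene (the A box and the B box), and transcription ends at a short run of T after it. In the naming of the genomic tRNA database, genes that share the first number have identical mature sequences, so 3-1 and 3-2, and 4-1 and 4-2, are copies that differ only in where they lie.

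To show how alike these genes are, the mouse genome GRCm39 was searched for windows of 72 bases that fold as a tRNA with the anticodon CCA. Exactly 8 windows held all 17 base pairs of the acceptor, anticodon and T stems, and the next best held 16. These 8 windows had 6 distinct sequences, with 2 sequences present as a pair of copies, the same numbers as in the locus names. The anticodon is in capitals and all are written 5′ to 3′ on the strand of the gene.
chr13:23682276-23682347 (+) and chr13:23690689-23690760 (+), identical: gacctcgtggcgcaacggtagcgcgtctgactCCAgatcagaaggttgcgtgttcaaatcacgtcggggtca
chr11:68932652-68932723 (+) and chr11:68954321-68954392 (-), identical: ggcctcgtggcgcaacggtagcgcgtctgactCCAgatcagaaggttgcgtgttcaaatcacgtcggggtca
chr11:62636841-62636912 (-): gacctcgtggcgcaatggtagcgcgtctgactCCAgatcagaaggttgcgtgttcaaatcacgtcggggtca
chr11:61298742-61298813 (-): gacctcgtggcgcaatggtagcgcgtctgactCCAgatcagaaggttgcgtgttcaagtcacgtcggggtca
chr10:91017274-91017345 (-): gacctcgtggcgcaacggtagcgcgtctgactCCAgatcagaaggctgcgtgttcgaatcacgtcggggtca
chr10:23652981-23653052 (-): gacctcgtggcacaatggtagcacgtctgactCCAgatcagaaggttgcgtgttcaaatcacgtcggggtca

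With positions counted from 1 at the 5′ end and the chromosome 13 pair as the reference, the chromosome 11 pair differed by A2G alone. The gene near 62.6 Mb differed by C16T. The gene near 61.3 Mb differed by C16T and A58G. On chromosome 10, one gene differed by T46C and A56G, and the other by G12A, C16T and G23A. A run of at least 4 T began within 50 bases after the end of 7 of the 8 genes, and no such run was found after the chromosome 10 gene with G12A.

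No window overlapped an exon in GENCODE M39. Both chromosome 13 genes lay in an intron of the lncRNA gene Gm61424 on the same strand, the 62.6 Mb gene lay in an intron of the lncRNA gene Zfp286os on the opposite strand, and the other 5 were intergenic. The nearest protein-coding genes were Tmpo, 97 bp from one chromosome 10 gene, then Borcs6 (1917 bp), Aurkb (3744 bp), Zfp286 (5511 bp), Rps12 (8029 bp), Btn2a2 (9247 and 17660 bp for the chromosome 13 pair) and Slc47a1 (29571 bp). In the RefSeq annotation of GRCm38.p6, the genes of the chromosome 11 pair had 6 and 3 other tRNA genes within 10000 bp and those of the chromosome 13 pair had 5 each, each other included, whereas 3 of the other 4 genes had none. The tables name loci without coordinates, so which window belongs to which name was not assigned.

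The position of the genes could be set against the peaks of open chromatin instead, which the authors called on GRCm38.p6, the build of the RefSeq coordinates used for this step. A peak overlapped, by at least 1 base, 6 of the 8 tRNA-Trp genes in the Phe11 brain list, 5 in the Phe21 brain list and 6 in the Phe31 brain list, where 56.5%, 52.8% and 53.7% of all 430 RefSeq tRNA genes did so. In the liver lists it was 5, 4 and 3 of 8, against 50.2%, 44.2% and 40.9% of all tRNA genes. These are consensus lists over the libraries of a table, so they carry no replicates. Both genes of the chromosome 11 pair and the chromosome 10 gene next to Tmpo lay in a peak in all 6 lists. The chromosome 11 gene that differs by C16T alone did so in the 3 brain lists only. Of the identical pair on chromosome 13, the gene with the lower coordinates lay in a peak in the 3 brain lists and in Phe11 liver, and the other in Phe11 and Phe31 brain and in Phe11 and Phe21 liver, so that both did so in 3 lists. The chromosome 10 gene with G12A and the chromosome 11 gene with A58G, matched between the builds by their order on the chromosome, lay in none.

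The libraries held 20315 to 35565 reads over the 401 loci in brain and 4719 to 23754 in liver, of which 577 to 1013 and 83 to 484 fell on tRNA-Trp loci. Levels are given as reads per 10000 reads on all tRNA loci. Reads were counted over the gene with 50 nt on each side, a like window for all tRNA-Trp loci, so levels of loci can be compared, although copies with alike flanks can lose reads that do not map uniquely. In 4 pairs of libraries of the same group (WT brain 3 and 18, WT liver 1 and 22, WT liver 3 and 24, Phe11 liver 6 and 20), each joining batch 1 and batch 2 of the labels, the counts differed by less than sampling noise (chi-square over its degrees of freedom 0.478 to 0.764). They were counted as 1 sample in every mean ± SD and n, while the tests kept each library, which makes p-values too small where such a pair enters. The 3 WT livers tabulated with the Phe31 livers differed from the other WT livers by more than sampling noise. The labels leave only the WT livers of batch 3 for them, a batch without brain libraries, and the fit between tissues had no batch term. The labels do not say that each library is a separate animal. The study describes as many control mice in brain as there are WT brain libraries, and as many in liver as there are WT livers of batch 1 and batch 2. That goes against counting the near-identical WT pairs once, and it leaves the WT livers of the Phe31 table outside that number. For its knockout comparisons, however, the study gives fewer replicates of each genotype than the WT and Phe11 libraries tabulated, so the number of animals was not settled. Where libraries share an animal, p-values measure a spread that may be technical.

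The tRNA-Trp loci spanned a wide range of accessibility. The loci 3-1, 5-1 and 2-1 held 75.8% ± 2.48 (SD, n = 14) of the tRNA-Trp reads in brain and 80.6% ± 3.98 (n = 14) in liver. In the order of levels over the 15 brain libraries, 3-1 (mean 77.6 per 10000) and 5-1 (76.7) did not differ beyond their spread (exact two-sided sign-flip permutation test, adjusted p = 0.607 over 14 neighbour pairs of both tissues). The level then fell to 2-1 (60.01), below 5-1 in 15 of 15 libraries, and to 1-1 (28.2), below 2-1 in 15 of 15 (both adjusted p = 0.000171, exact). The loci 1-1 and 3-2 (25.6) were not separated (adjusted p = 0.071, exact). At the low end 4-1 (8.03), 4-2 (4.83) and 6-1 (1.02) each differed from the neighbour above (adjusted p = 0.000171, 0.000569 and 0.000171, exact). Over the 17 liver libraries, 5-1 (61.9), 3-1 (56.7) and 2-1 (49.5) were not separated from each other as neighbours (adjusted p = 0.198 and 0.148, exact), and 2-1 lay above 4-2 (13.9) in 17 of 17 libraries (adjusted p = 0.000171, exact). The loci 4-2 and 3-2 (12.1) were not separated (adjusted p = 0.275, exact), nor were 4-1 (8.12) and 1-1 (4.47; adjusted p = 0.071, exact), whereas 3-2 exceeded 4-1 (adjusted p = 0.0312) and 1-1 exceeded 6-1 (1.42; adjusted p = 0.0228, exact). With the near-identical libraries averaged, 1-1 and 6-1 in liver were no longer separated (adjusted p = 0.0782, exact). The genotypes were pooled for the order. In the 7 WT livers alone, which can reach an unadjusted p of 0.0156, 3-2 exceeded 4-1 in 4 of 7 libraries, by 1.35 on average against 4.00 over all 17 (adjusted p = 0.511, exact), and the pair was not separated without the knockout libraries. The 5 WT brain libraries alone cannot give p below 0.0625.

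**Figure D1:**
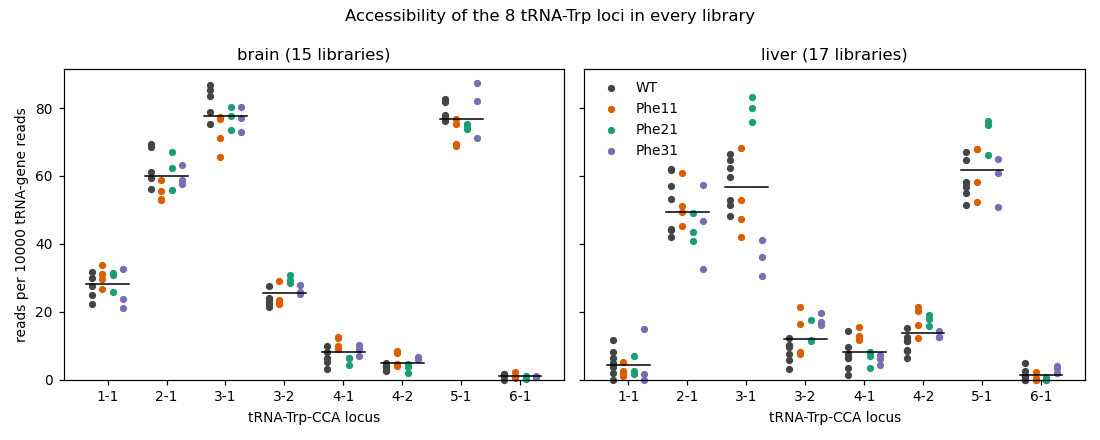
Reads per 10000 tRNA-gene reads at each of the 8 tRNA-Trp-CCA loci (x axis), 1 point per library, coloured by labelled genotype, in brain (left, 15 libraries) and liver (right, 17 libraries); black lines are means over libraries. The loci 2-1, 3-1 and 5-1 stand above the rest in both tissues, 1-1 and 3-2 are lower in liver, and 6-1 lies near 0.

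The copies with identical sequence were not equally accessible. The locus 3-1 held more reads than 3-2 in 15 of 15 brain and 17 of 17 liver libraries, and took 75.0% of the reads of the pair in brain (3095 against 1031) and 83.6% in liver (1028 against 201). For the other pair, 4-1 held more reads than 4-2 in 14 of 15 brain libraries and fewer in 14 of 17 liver libraries. The locus 4-2 thus gave 37.7% of the pair's reads in brain (198 reads against 327) and 63.3% in liver (259 against 150). These shares pool libraries and were not tested.

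The locus 6-1 was scarcely detected. It held 0 to 6 reads in a brain library and 0 to 4 in a liver library, 40 and 18 reads in total, and it was at 0 in 1 brain and 6 liver libraries. In WT brain 16, a count of 0 of 24351 reads allows up to 1.23 per 10000 (3 reads), and in WT liver 22, with 6186 reads, up to 4.85. It was below the minimum for the fits between tissues and genotypes, so beyond its place in the order its brain and liver levels were not tested. Intervals and such limits cover counting error only.

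The accessibility of the tRNA-Trp family differed between brain and liver. The sum of the 8 loci was 287.1, 285.1, 284.0, 286.6 and 290.1 per 10000 in WT brain 1, 2, 3, 16 and 18, and 193.8 at the lowest, 197.2 at the median and 212.8 at the highest over 7 WT livers. Every brain library exceeded every liver library. The 95% Wilson interval from counting was 262 to 308 in WT brain 3, the shallowest brain library, and 165 to 235 in WT liver 22. The mean over libraries was 286.6 in brain and 201.7 in liver, a difference of 84.9 (exact two-sided permutation test, p = 0.00253, the smallest that 5 against 7 libraries can give). The difference was 82.1 in batch 1 (3 against 2 libraries, exact p = 0.2) and 91.2 in batch 2 (2 against 2, exact p = 0.333), both the smallest p possible. Per locus, the tRNA-Trp family had the 5th highest mean of 22 families in WT brain (35.8 per 10000) and the 13th in WT liver (25.2).

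**Figure D2:**
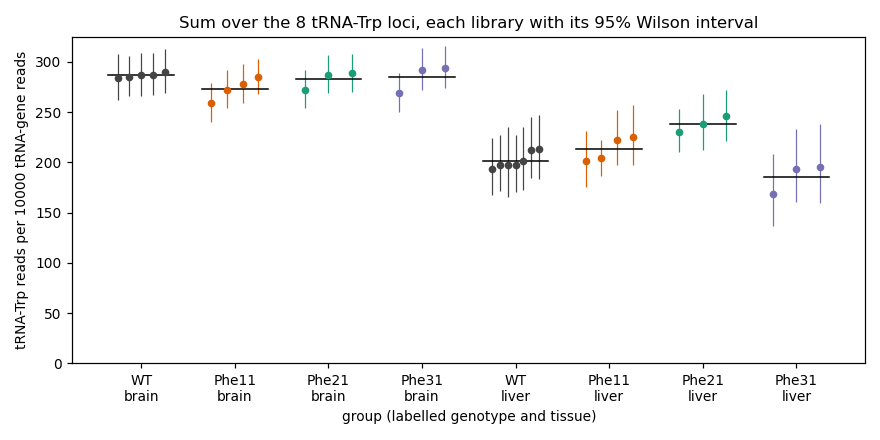
Sum over the 8 tRNA-Trp loci in reads per 10000 tRNA-gene reads (y axis) for every library, by labelled genotype and tissue; bars are 95% Wilson intervals from counting and black lines are means over libraries. All 15 brain libraries lie between 259 and 294 and all 17 liver libraries between 169 and 246.

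The family did not move as one between the tissues. Of the 7 loci tested in WT libraries, 4 were higher in brain (1-1, 3-1, 3-2 and 5-1), 1 was lower (4-2) and 2 did not pass the test. The lower locus, 4-2, averaged 3.69 per 10000 in brain, below the minimum of 5, and was tested only because of its liver level. Over all 255 loci tested 163 passed (63.9%), 36.5% higher in brain and 27.5% lower. Log2 differences are brain minus liver on log2(reads per 10000 + 1), tested with limma and Benjamini-Hochberg adjustment over all loci tested, and understate the change of low loci. The median was 0.43 for the tRNA-Trp loci and 0.15 for all loci tested.

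The locus 1-1 had the widest tissue difference of the family. It gave 27.7, 31.9, 30.0, 22.2 and 25.1 per 10000 in WT brain 1, 2, 3, 16 and 18, and 0 at the lowest, 5.04 at the median and 11.7 at the highest in WT liver, so that the tissues did not overlap, as for 41.2% of all loci tested. The level was 27.3 ± 3.96 (SD, n = 4) in brain and 5.38 ± 4.42 (n = 5) in liver, 5.08-fold higher in brain, with a log2 difference of 2.50 (SE 0.451, adjusted p = 0.000139). The liver values rest on 30 reads in 7 libraries, against 322 reads in 5 brain libraries.

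The locus 3-2 gave 23.1, 23.98, 27.6, 21.4 and 22.4 per 10000 in the same brain libraries and 3.23, 9.65 and 12.3 as the lowest, median and highest of WT liver. Again no brain library overlapped a liver library. The mean was 23.3 ± 1.54 (n = 4) in brain and 8.43 ± 2.65 (n = 5) in liver (log2 difference 1.47, SE 0.25, adjusted p = 7.59e-05).

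The locus 4-2 went the other way. Its level was 3.77, 4.87, 2.46, 2.88 and 4.03 per 10000 in WT brain 1, 2, 3, 16 and 18, and 6.46 at the lowest, 11.3 at the median and 15.2 at the highest in WT liver. Liver was higher without overlap, 10.7 ± 2.87 (n = 5) against 3.69 ± 0.869 (n = 4) in brain, which is 2.9-fold (log2 difference -1.32, SE 0.257, adjusted p = 0.000264 with limma, on 43 reads in brain and 62 in liver). The brain mean of 4-2 lay below the minimum mean of 5 for a test. The locus was therefore tested only because of its liver level, which limits what its p-value adds. The copy 4-1 had 7.07 ± 2.51 (n = 4) in brain and 6.05 ± 3.81 (n = 5) in liver, with overlapping libraries (log2 difference 0.05, SE 0.402, adjusted p = 0.915). Its WT livers also fell apart by table: the 3 tabulated with the Phe31 livers gave 1.26, 3.5 and 6.43, and the other 4 gave 6.47 to 14.4. Without those 3 libraries the difference of 4-1 turned to -0.49 (SE 0.315, adjusted p = 0.167), and it was -0.26 within batch 1 and -0.80 within batch 2, the direction of 4-2. Whether the tissue differences of 4-1 and 4-2 differ from each other was not tested.

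The 3 most accessible loci showed smaller differences. The locus 3-1 was 81.2 ± 4.99 (n = 4) in WT brain and 57.7 ± 6.2 (n = 5) in WT liver, with brain libraries at 75.3 to 86.9 and liver libraries at 48.3 to 66.5 (log2 difference 0.50, SE 0.101, adjusted p = 0.00038). The locus 5-1 was 79.8 ± 2.77 (n = 4) in brain and 57.7 ± 5.25 (n = 5) in liver, with brain at 76.3 to 82.6 and liver at 51.4 to 67.1 (0.43, SE 0.0906, adjusted p = 0.000533). On the 6 library numbers found in both tissues, which include knockouts, both calls were lost, at 0.24 for 3-1 (adjusted p = 0.0803 with the number as a block and 0.114 without) and 0.16 for 5-1 (adjusted p = 0.108 and 0.0706). The locus 2-1 overlapped between the tissues, at 63.0 ± 3.96 (n = 4) and 54.6 ± 8.21 (n = 5), and did not pass the test (0.28, SE 0.121, adjusted p = 0.0508). Its WT livers fell apart by table: the 3 tabulated with the Phe31 livers gave 57.2 to 62.2 and the other 4 gave 42.0 to 53.4. Without those 3 libraries 2-1 was called higher in brain (0.45, adjusted p = 0.000736).

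Within batch 1 and within batch 2, the log2 differences kept the sign of the pooled value for the 5 loci called, at 2.36 and 2.22 for 1-1, 0.31 and 0.67 for 3-1, 1.40 and 1.61 for 3-2, 0.35 and 0.38 for 5-1, and -1.14 and -1.48 for 4-2.

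The knockout comparisons ask whether the tRNA genes that remain change when a tRNA-Phe gene is lost. The accessibility of the tRNA loci was compared between each deletion and its WT controls, within tables that the authors normalised separately. As a check on the labels, tRNA-Phe-GAA-1-1 kept 33.4% of the WT normalised count in Phe11 brain and 12.9% in Phe11 liver, tRNA-Phe-GAA-2-1 kept 7.02% and 8.02% in Phe21, and tRNA-Phe-GAA-3-1 kept 4.82% in Phe31 brain. In the liver libraries labelled Phe31, tRNA-Phe-GAA-3-1 kept 75.4% and tRNA-Phe-GAA-1-1 kept 9.95%. They are therefore called the livers labelled Phe31. WT brain 1, 2 and 3 and WT liver 1, 3 and 24 serve as controls in more than 1 table, so the comparisons within a tissue are not independent of each other.

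A locus was tested where its normalised count averaged 10 or more over the table, with limma on log2(normalised count + 1), with batch as a term for Phe11, and adjusted over all loci tested in the table. Of the tRNA-Trp loci, 3 of 7 tested passed in Phe11 brain, 0 of 6 in Phe21 brain, 0 of 7 in Phe31 brain, 0 of 6 in Phe11 liver, 1 of 5 in Phe21 liver and 1 of 3 in the livers labelled Phe31. The background over all loci tested was 28.1% (74 of 263), 0% (0 of 253), 0.775% (2 of 258), 12.1% (25 of 207), 13.4% (27 of 201) and 10.7% (19 of 178) in the same order. With 3 to 7 loci tested, these counts are not read as a result about the family. Library depth was split by genotype in every comparison with a tRNA-Trp call. Phe11 brain held 25774 to 35565 reads and its WT 20315 to 24351. Phe21 liver held 11278 to 18575 and its WT 7895 to 9739. The livers labelled Phe31 held 4719 to 5576 and their WT 7943 to 9329. Depth was also split in Phe21 brain, without a call, and overlapped in Phe31 brain and Phe11 liver. An effect of depth was not tested.

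**Figure D3:**
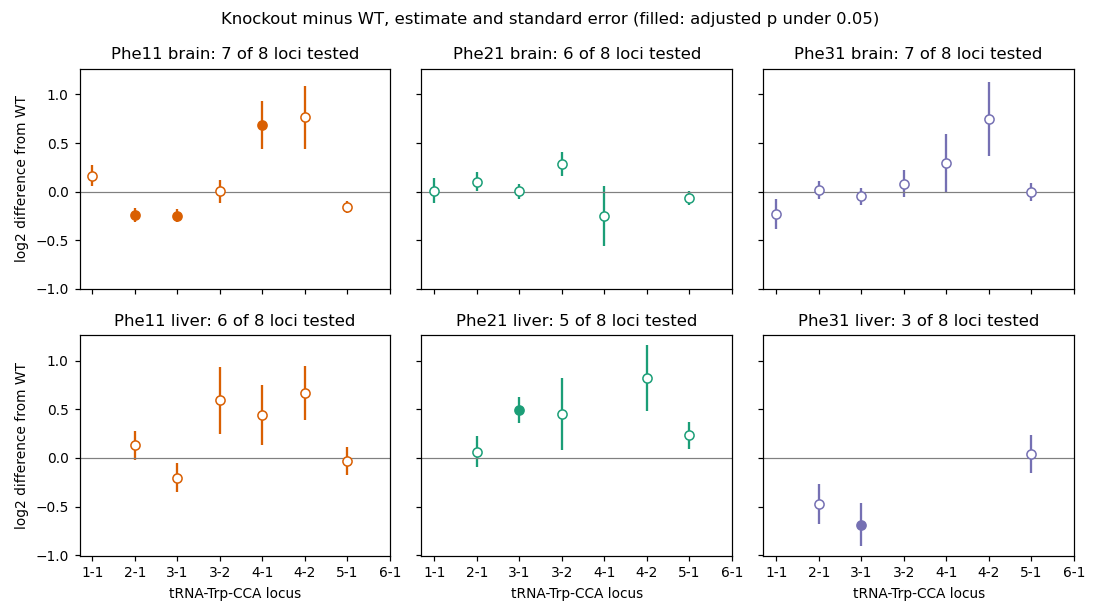
Log2 difference from WT (y axis, points with standard error) for the tested tRNA-Trp-CCA loci (x axis) in each of the 6 comparisons; filled points have an adjusted p under 0.05 (limma). The filled points are 2-1, 3-1 (lower) and 4-1 (higher) in Phe11 brain, 3-1 (higher) in Phe21 liver and 3-1 (lower) in the livers labelled Phe31.

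In Phe11 brain the accessible loci 3-1 and 2-1 fell and the weakly accessible 4-1 rose; over all loci tested 14.8% were called higher and 13.3% lower. The normalised count of 3-1 was 205, 217, 224 and 225 in WT 1, 3, 16 and 18, and 164, 198, 193 and 180 in Phe11 5, 6, 13 and 14. All 4 Phe11 libraries lay below all 4 WT libraries, a lack of overlap shown by 27.8% of the loci tested. The mean was 217 ± 10.0 (n = 3) in WT and 184 ± 15.0 (n = 4) in Phe11, 84.9% of WT (log2 difference -0.25, SE 0.0659, adjusted p = 0.00542). The locus 2-1 gave 155, 146, 180 and 180 in WT and 133, 135, 148 and 140 in Phe11, where the highest Phe11 library passed the lowest WT library. It kept 83.96% of WT (-0.24, SE 0.0737, adjusted p = 0.0146), and missed the threshold without WT 18 (adjusted p = 0.0504) or Phe11 14 (adjusted p = 0.0759). The locus 4-1 gave 26.2, 16.6, 21.5 and 8.11 in WT and 22.4, 31.4, 31.8 and 25.5 in Phe11 (0.69, SE 0.25, adjusted p = 0.0399), and its groups overlapped. WT 18, with 7 reads at this locus, weighed on the value: without it the difference was 0.35 (adjusted p = 0.217), and with the near-identical pair WT 3 and 18 averaged it was 0.50 (adjusted p = 0.0984). The call was also lost without WT 3, Phe11 6, Phe11 13 or Phe11 14 (adjusted p = 0.105, 0.134, 0.1 and 0.051).

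The loci 5-1 and 4-2 had an unadjusted p under 0.05, as did 43.3% of the loci tested, but did not pass with limma and a trend. The locus 5-1 was 215, 198, 204 and 200 in WT and 193, 192, 174.8 and 174 in Phe11, without overlap (-0.16, SE 0.0631, adjusted p = 0.0588), and it passed without WT 3 (-0.19, adjusted p = 0.0355). The locus 4-2 was 9.82, 6.39, 7.52 and 10.4 in WT and 11.7, 10.2, 19.8 and 21.1 in Phe11 (0.77, SE 0.321, adjusted p = 0.0694), where both high values are the batch 2 libraries. Its WT mean of 8.58 lay below the minimum of 10, so the locus was tested only because of its Phe11 level. That limits every fit of 4-2 given here. Under the same limit, 4-2 passed without WT 1 (0.95, adjusted p = 0.0404) and in batch 2 alone (1.12, adjusted p = 0.0263). The choice between 4-1 and 4-2 depended on the fit: edgeR on recovered reads called 4-2 (0.88, adjusted p = 0.0415) with 2-1 and 3-1 but not 4-1 (adjusted p = 0.0532). Limma without a trend called 4-2 (adjusted p = 0.0264) and 2-1 (adjusted p = 0.0409), but neither 3-1 (adjusted p = 0.0574) nor 4-1 (adjusted p = 0.156). The loci 1-1 (0.17) and 3-2 (0.00) had adjusted p of 0.274 and 0.979.

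The direction went with the level of the locus over the whole table. The median log2 difference of all tested loci was 0.34 when the loci were split into 3 by level, in the part with the lowest means, which holds 4-1 and 4-2, 0.00 in the middle part, which holds 1-1 and 3-2, and -0.11 in the highest part, which holds 2-1, 3-1 and 5-1. After cyclic loess normalisation along the level, an alternative chosen after the data were seen, no tRNA-Trp locus passed: 3-1 was at -0.13 (adjusted p = 0.143), 2-1 at -0.15 (0.147) and 4-1 at 0.39 (0.282), while 42 loci of the table still passed. In batch 1 alone the values were -0.23 for 3-1, -0.16 for 2-1 and 0.33 for 4-1, none past the threshold; in batch 2 alone they were -0.26, -0.32 and 1.04, all past it. DESeq2 on the recovered reads called none of the 3, at -0.233 for 3-1, -0.238 for 2-1 and 0.635 for 4-1 (adjusted p = 0.0853, 0.127 and 0.254). Over all loci it called 34, against 74 by limma.

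**Figure D4:**
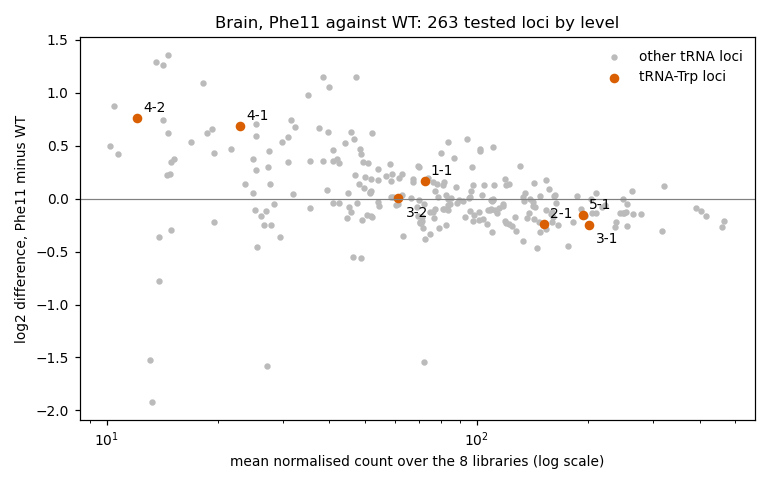
Log2 difference of Phe11 from WT in brain (y axis) against the mean normalised count over 8 libraries (x axis, log scale) for 263 tested loci, with the 7 tested tRNA-Trp loci labelled. The weakly accessible 4-1 and 4-2 lie above 0 and the more accessible 2-1, 3-1 and 5-1 below 0, within the cloud of the other loci.

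The sum of the 8 loci in Phe11 brain was 258.8, 277.5, 284.8 and 272.4 per 10000 in Phe11 5, 6, 13 and 14, against 284.0 to 290.1 in the 4 WT libraries of the table. The mean of the Phe11 libraries was 95.3% of WT, a difference of -13.6 (exact two-sided permutation test, p = 0.0571, where 0.0286 is the smallest possible). As a sum of normalised counts the Phe11 mean was 92.5% of WT, and the difference of -55.9 passed the test (exact p = 0.0286, the smallest possible). Without Phe11 5, the lowest library, the difference per 10000 was -8.74 (exact p = 0.114). In batch 1 the difference was -17.4 and in batch 2 it was -9.79, with 2 libraries a group and an exact p of 0.333 each, the smallest possible.

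In Phe21 and Phe31 brain no tRNA-Trp locus passed. Over the whole table limma called 0 loci in Phe21 brain, with 43 of 253 (17%) at an unadjusted p under 0.05, edgeR called 2 and DESeq2 called 0; the tRNA-Trp loci included 1 with an unadjusted p under 0.05 by limma. It was 3-2, with 58.8, 61.5 and 70.9 normalised counts in WT 1, 2 and 3 and 79.8, 78.8 and 74.6 in Phe21 7, 8 and 9. The groups did not overlap, as for 24.1% of the loci tested (log2 difference 0.29, SE 0.122, unadjusted p = 0.0344, adjusted p = 0.238 with limma). In Phe31 brain, 4-2 was at 9.25, 11.9 and 6.04 in WT and 15.1, 15.98 and 15.1 in Phe31 10, 11 and 12, also without overlap, where 11.2% of loci did so, and its adjusted p was 0.745 with limma. Its WT mean of 9.07 lay below the minimum of 10, so the locus was tested only because of its Phe31 level. The lack of overlap is therefore not read as a result. None of the 7 tRNA-Trp loci tested in Phe31 brain had an unadjusted p under 0.05 by limma, against 6.2% of all loci tested, and edgeR and DESeq2 called none of them. The sum per 10000 was 272.4, 288.5 and 286.9 in Phe21 and 268.6, 292.1 and 294.2 in Phe31, against 284.0 to 287.1 in WT (differences of -2.81 and -0.46, exact p = 0.9 and 1). Neither sign was stable: the Phe21 difference was 2.29 without Phe21 7 and 12.7 as a sum of normalised counts, and the Phe31 difference was 7.73 without Phe31 10 and 0.389 without WT 1. With 3 against 3 libraries the exact permutation test cannot go below 0.1.

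In Phe11 liver none of 6 loci tested passed with limma, edgeR or DESeq2, and 1 had an unadjusted p under 0.05 by limma, against 24.2% of all loci tested. It was 4-2, at 6.57, 12.9, 11.3 and 11.3 normalised counts in WT 1, 3, 22 and 24 and 15.3, 12.5, 21.3 and 19.8 in Phe11 4, 6, 20 and 21 (0.67, SE 0.275, adjusted p = 0.0937); 1 Phe11 library lay under the highest WT library. The sum was 225.3, 201.6, 222.6 and 203.8 per 10000 in Phe11 against 193.8 to 212.8 in WT (difference 13.1, exact p = 0.171), 10.2 within batch 1 (exact p = 0.667) and 16.01 within batch 2 (exact p = 0.333).

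In Phe21 liver 3-1 rose, and 8.46% of all loci tested were called higher. Its normalised count was 69.2, 71.4 and 53.6 in WT 1, 3 and 24 and 84.9, 89.6 and 98.4 in Phe21 7, 8 and 9, with no overlap, as for 31.3% of the loci tested. The mean was 65.8 ± 4.75 (n = 2) in WT and 90.9 ± 6.88 (n = 3) in Phe21, 138% of WT (log2 difference 0.49, SE 0.136, adjusted p = 0.00509). WT 3 and 24 form one of the near-identical pairs; with the pair averaged the difference was 0.46 (adjusted p = 0.0123). WT 24 is the only batch 2 library of this table, all 3 Phe21 livers being batch 1, and the fit had no batch term. Within batch 1, that is without WT 24, the difference was 0.36 and the call was lost (adjusted p = 0.112). Without Phe21 9 it was 0.44 (adjusted p = 0.114). DESeq2 gave 0.39 (adjusted p = 0.222) and edgeR 0.38 (adjusted p = 0.039). The locus 4-2 was at 7.16, 14 and 12.5 in WT and 19.9, 21.2 and 18.8 in Phe21, also without overlap, and did not pass (0.82, SE 0.339, adjusted p = 0.0901). The sum was 230.4, 245.7 and 238.5 per 10000 in Phe21 against 193.8, 212.8 and 197.1 in WT, 118% of WT (difference 37.0, exact p = 0.1, the smallest possible), and 34.9 higher within batch 1 (exact p = 0.2, the smallest possible).

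In the livers labelled Phe31, 3-1 was lower than in WT, and 8.99% of all loci tested were called lower. It gave 34.6, 44.6 and 34.0 normalised counts in the WT libraries and 25.9, 23.4 and 19.8 in the labelled libraries, with no overlap, as for 23.6% of the loci tested. The mean was 37.7 ± 5.94 (n = 3) and 23.0 ± 3.05 (n = 3), 61.1% of WT (log2 difference -0.68, SE 0.218, adjusted p = 0.0242; 147 and 55 reads). The call was lost without any 1 of the 3 WT libraries (adjusted p = 0.0559 to 0.278) and without 1 of the labelled libraries (the library named c, adjusted p = 0.0823), and with edgeR (0.0619) and DESeq2 (0.463). The locus 2-1 gave 40.4, 38.3 and 41.0 in WT and 29.3, 37.1 and 21.2 in the labelled libraries (-0.47, SE 0.205, adjusted p = 0.136). It was -0.27 without library c (adjusted p = 0.502) and -0.66, past the threshold, without library b (adjusted p = 0.0404). Only 3 of the 8 loci reached the mean of 10 that was needed for a test. Among the loci below it, 3-2 was at 6.59, 3.91 and 6.37 in WT and 12.4, 11 and 10.6 in the labelled libraries, on 22 and 27 reads, without overlap and in the opposite direction to its copy 3-1 (adjusted p = 0.206 when no minimum was set). The sum was 193.7, 195.0 and 168.5 per 10000 against 201.4, 212.4 and 197.2 in WT (difference -18.0, exact p = 0.1, the smallest possible), and the difference was -9.37 without library c (exact p = 0.2).

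**Figure D5:**
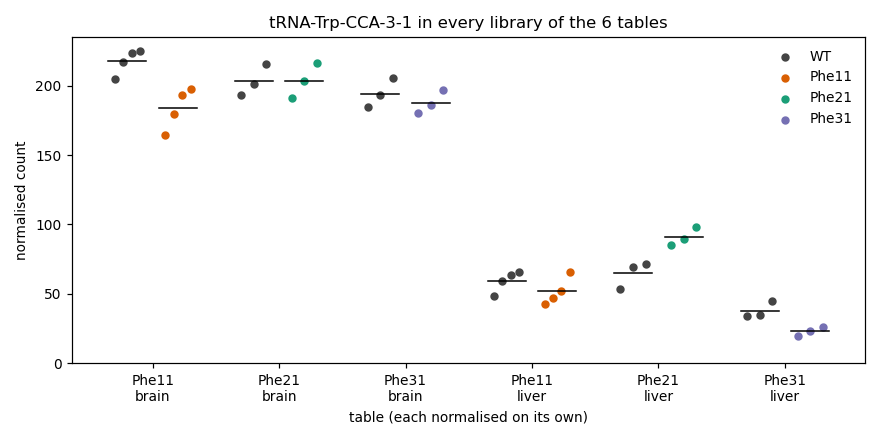
Normalised count of tRNA-Trp-CCA-3-1 (y axis) in every library of the 6 tables (x axis, each table normalised on its own), WT beside the labelled knockout; black lines are means over libraries. Knockout and WT points do not overlap in Phe11 brain (lower), Phe21 liver (higher) and the livers labelled Phe31 (lower). Library depth also differed by genotype without overlap in these tables.

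Whether a knockout effect differed between the tissues was tested for Phe11 and Phe21 as an interaction, brain effect minus liver effect. No tRNA-Trp locus passed among 258 loci tested, of which 5.43% passed for Phe11 and 8.91% for Phe21. At an unadjusted p under 0.05 by limma, reached by 20.5% and 19.8% of all loci, there was 1 tRNA-Trp locus for Phe11, 2-1 (-0.37, SE 0.16, adjusted p = 0.177), and 2 for Phe21, 3-1 (-0.41, SE 0.181, adjusted p = 0.185) and 5-1 (-0.36, SE 0.156, adjusted p = 0.164). edgeR called none of them.

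The other tRNA families were taken as context in 3 lists: those whose anticodon is 1 base from CCA (tRNA-Leu-CAA, Ser-CGA, Arg-CCG, Arg-CCT, Gly-CCC, Cys-GCA and SeC-TCA, 76 loci), and the other families for aromatic amino acids, tRNA-Phe-GAA (7 loci) and tRNA-Tyr-GTA (10 loci). Between WT brain and WT liver, 9 of the 25 near-anticodon loci tested were higher in brain and 10 lower, with a median of 0.12; tRNA-Phe-GAA had 2 higher and 2 lower of 6, and tRNA-Tyr-GTA 4 higher and 3 lower of 9, beside 36.5% higher and 27.5% lower of all loci tested. In Phe11 brain, 3 of 27 near-anticodon loci rose and 5 fell, with a median of -0.11, beside 14.8% higher and 13.3% lower of all loci tested. The calls ran from tRNA-Leu-CAA-4-1 (1.15, SE 0.153, adjusted p = 1.16e-06) to tRNA-Cys-GCA-4-10 (-1.92, SE 0.423, adjusted p = 0.00101). In the same comparison tRNA-Tyr-GTA had 2 of 9 higher and 3 lower, and tRNA-Phe-GAA had 1 of 6 lower, the deleted gene.

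For the other comparisons, the share called of all loci tested was 0% (Phe21) and 0.775% (Phe31) for brain, and 12.1% (Phe11), 13.4% (Phe21) and 10.7% (labelled Phe31) for liver. Among the near-anticodon loci, 0 of 27 passed in Phe21 brain and in Phe31 brain, 3 of 22 rose and 1 fell in Phe11 liver, 0 of 22 passed in Phe21 liver and 3 of 22 fell in the livers labelled Phe31. The 3 that fell there were tRNA-Arg-CCG-3-1 (-0.67), tRNA-Arg-CCT-1-1 (-0.90) and tRNA-Arg-CCT-2-1 (-0.76). For tRNA-Tyr-GTA it was 0 of 9 in Phe21 and Phe31 brain, 2 of 8 lower in Phe11 liver, 1 of 8 higher in Phe21 liver and 2 of 7 lower in the livers labelled Phe31. For tRNA-Phe-GAA it was 0 of 6 in Phe21 brain, 1 of 6 lower in Phe31 brain, 2 of 6 lower in Phe11 liver, 1 of 6 lower in Phe21 liver and 0 of 5 in the livers labelled Phe31.

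As a description, the loci whose level most resembled that of the tRNA-Trp sum were sought among 251 other loci, by Pearson's r of log2(reads per 10000 + 1). Over 15 brain libraries they were tRNA-Thr-AGT-3-1 (r = 0.756), tRNA-Ala-AGC-2-1 (0.723) and tRNA-Ser-GCT-2-1 (0.682). Over 17 liver libraries they were tRNA-Arg-CCT-4-1 (r = 0.784), tRNA-Lys-CTT-2-1 (0.704) and tRNA-Tyr-GTA-1-5 (0.67). No locus was in both sets.

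Over all 32 libraries, the closest locus was tRNA-Gly-GCC-4-1 for 1-1 (r = 0.915), tRNA-Tyr-GTA-1-5 for 4-2 (0.875), tRNA-Phe-GAA-1-1 for 3-1 (0.844), tRNA-Gly-CCC-1-2 for 3-2 (0.844), tRNA-Val-CAC-2-5 for 5-1 (0.802), tRNA-His-GTG-3-1 for 2-1 (0.646) and tRNA-Gly-GCC-1-2 for 4-1 (0.622). These values share the split between brain and liver. Within brain alone they ranged from -0.639 (2-1) to 0.698 (4-1), and for 3-1 and tRNA-Phe-GAA-1-1 r was 0.56 in brain and 0.776 in liver, where the latter gene is deleted or low in the Phe11 libraries and in the livers labelled Phe31. The points share each library's total, so their levels are not independent.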

How the data were processed

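ATAC-seq libraries of brain and liver were processed by the authors with Trim Galore 0.6.4, Bowtie2 2.4.1, Picard 2.23.8 and SAMtools 1.10 on GRCm38.p6, kept to nucleosome-free fragments of at most 175 nt and counted with featureCounts 2.0.0 over high-confidence tRNA genes with 50 nt on each side. The deposited values are counts divided by DESeq2 size factors, a normalised signal made separately for each of 6 tables. Dividing by the step of each library gave whole reads for 100% of values (tolerance 0.0001), although 4 of the columns did not pass an independent check of this. Peaks were positions in the authors' consensus lists. The authors' separate comparison tables, which hold fold changes with p-values or s-values, were not used.

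Knockouts were tested with limma 3.58.1 (trend) on log2(normalised count + 1), mean at least 10, batch as a term for Phe11; tissues on log2(reads per 10000 + 1), mean at least 5; Benjamini-Hochberg adjustment covered all loci tested. Sums and orders used exact permutation tests (scipy 1.17.1). Alternatives included edgeR 4.0.16 and DESeq2 1.42.0 on recovered reads. The limma knockout fit, without its batch term, was tested on simulated counts at the depth of each table. The members and lists were chosen with earlier results of these data known. All 8 loci were named, with the 3 loci closest to the sum per tissue and the 1 closest to each locus. Genes were sought in GRCm39 and matched to none of the locus names.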

Additional observations from a re-analysis of the deposited data

How the results depend on the processing

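The 5 tissue calls kept their sign in each of their 23 or 24 alternatives. The loci 1-1, 3-2 and 4-2 stayed past the threshold in every one of these that tested them, and 3-1 and 5-1 in 22 of 24 (0.24 and 0.16 on the libraries of the block, with and without it, adjusted p = 0.0706 to 0.114). The locus 4-2 was tested in 23, and wherever a minimum was set it was tested only because of its liver level. With the replicate block over the 6 numbers found in both tissues (2 WT, 1 Phe11 and 3 Phe21 pairs), 4 loci were called (1-1, 2-1, 3-2 and 4-2), as on the same libraries without the block, and the block gave 2.75 for 1-1 and a sum 62.3 per 10000 higher in brain (exact p = 0.0312). Within batch 1 and batch 2 the sum was 82.1 and 91.2 higher in brain, too few libraries to pass. The deviations of same-numbered libraries had r of 0.101 to 0.15 in the 3 Phe21 pairs and -0.0376 to -0.00302 in the WT and Phe11 pairs. All of these lay near 0 and none was tested, so the numbers were not taken as pairs. The Phe21 interaction, refitted on the WT and Phe21 numbers found in both tissues, a choice made after seeing the data, called 0 tRNA-Trp loci with the replicate block and without it (3-1 at -0.39, adjusted p = 0.147 and 0.127).

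In Phe11 brain, against 3 tRNA-Trp loci called, 1 was called without a filter, 0 by DESeq2, 0 in batch 1 alone, 0 after loess, and 1 to 4 with single libraries left out (1 without WT 18 or Phe11 14). Over all loci, 39 passed without a filter, 34 by DESeq2, 6 in batch 1 alone and 42 after loess, against 74 in the main fit. With single libraries left out, 56 to 72 passed. In Phe11 liver, against 0, leaving out single libraries gave 0 to 1 (4-2 without WT 3, 3-2 without WT 24). In Phe21 liver, against 1, it was 0 without a filter, without a trend and by DESeq2, 2 with TMM, and 0 to 1 with single libraries left out (0 without WT 24, which leaves batch 1 alone, or Phe21 9). The main fit called 27 of all loci there. Calls over all loci in these alternatives are not set beside the counts, so the counts are not read as particular to tRNA-Trp. In the livers labelled Phe31, against 1, it was 0 without a filter, without a trend, by edgeR and by DESeq2, and 0 to 2 with single libraries left out (2 without the labelled library b). The main fit called 19 of all loci there, and the same limit holds. Phe21 and Phe31 brain gave 0 in all 16 alternatives each, and the interaction 0 with edgeR. The cause of these changes was not tested.

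The Phe11 brain sum passed as a sum of normalised counts (-55.9, exact p = 0.0286). The Phe21 brain sum turned to 12.7 (exact p = 0.7) as normalised counts, and ranged from -5.76 to 2.29 with single libraries left out (2.29 without Phe21 7). The Phe31 brain sum ranged from -5.09 to 7.73 (7.73 without Phe31 10, 0.389 without WT 1). In the order of loci, 5 of 7 neighbours in brain and 3 of 7 in liver were separated, and 0 and 0 in the WT libraries alone, too few to pass after adjustment in brain; with near-identical libraries averaged it was 5 and 2, the pair lost being 1-1 and 6-1 in liver. Liver reads were fewest at 6-1, 1-1, 4-1, 3-2 and 4-2 (18 to 259 over 17 libraries) and limit these loci most.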

Other observations

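The 36 sets of 4 to 7 libraries (8 loci and their sum in 4 groups) were searched for single libraries far from the others by Dixon's test at 95%, and none was found.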
